A study of Hylyphantes graminicola with 5 samples.

Results

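The genes annotated for the enzymes that make dopamine and serotonin are described here across the brain cells of the spider *Hylyphantes graminicola*. They are *Th* (evm.TU.CTG-182.8, tyrosine hydroxylase, which one marker table also lists as *ple*), *Ddc* (evm.TU.CTG-632.8, DOPA decarboxylase) and *Trh* (evm.TU.CTG-6.13, tryptophan hydroxylase). These 3 genes, of 19195 in the count files, were taken by their identifiers, and all 3 were found in all 5 libraries. Each library was made from 35 to 40 brains of adults of mixed age, dissociated into single cells and pooled, with 3 libraries from females and 2 from males. No strain, genotype or treatment was given in the labels, so the only contrast between the groups is sex. Transcripts were captured in droplets with a 3' kit that gives each captured RNA molecule its own short tag, the unique molecular identifier (UMI), and each tag was counted once.

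Th converts tyrosine to L-DOPA, and Trh converts tryptophan to 5-hydroxytryptophan. Each is the committed and usually rate-limiting step of its own pathway, whereas Ddc removes the carboxyl group from both products and so gives dopamine in the one kind of neuron and serotonin in the other. In *Drosophila*, Th and Ddc also work outside the nervous system, in the hardening and pigmentation of cuticle, and Vmat loads the finished monoamines into synaptic vesicles.

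The files held 40233 barcodes called as cells, and 31145 (77.4%) were kept at limits on UMIs, genes and mitochondrial share. Library totals ran from 12269605 to 35943668 UMIs, and the median mitochondrial share of kept cells ran from 14.1% to 28.9%. Cells were placed in the study's numbered clusters by carrying over the numbers of 1998 annotated cells of female replicate 3. In a held-out check 71.0% of these regained their cluster and 99.3% their class, and 19 of 20 class markers had their highest level in their own class. The held-out check covers female replicate 3 only. Of the 40 clusters used for levels, clusters 11, 13, 17, 23 and 26 regained none of their annotated cells. Neurons made up 28650 of the kept cells. Computed doublet calls marked 2186 kept cells (7.02%), which stayed in unless stated, and 88 kept barcodes occurred in more than 1 library.

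*Ddc* was the most abundant of the 3 genes in the brain, *Th* was intermediate and *Trh* was close to the detection limit. Levels are given as UMIs of the gene per 1000000 UMIs of all kept cells of a library (CPM). As the UMIs come from the 3' end they are not divided by gene length. The *Ddc* level was 34.6, 27 and 27.7 CPM in female replicates 1, 2 and 3 and 22.3 and 20.1 CPM in male replicates 1 and 2. All 3 female libraries were above both male libraries. With 3 against 2 libraries such a split has an exact two-sided permutation p of 0.2, so it is given as a description. The *Th* level was 3.96, 1.37 and 5.67 CPM in the female libraries and 10.5 and 4.09 CPM in the male libraries. Male replicate 1 was the highest and female replicate 2 the lowest, and the sexes overlapped. The *Trh* level was 1.23, 0.535 and 2.06 CPM in the female libraries and 1.57 and 1.08 CPM in the male libraries. Its highest and lowest library were both female. Over the 5 libraries the mean was 26.3 ± 5.61 CPM for *Ddc*, 5.12 ± 3.38 CPM for *Th* and 1.29 ± 0.567 CPM for *Trh* (SD, n = 5), ranks 4583, 8827 and 11527 of 19195 genes. In such sums over a brain, fewer cells of a type and less RNA per cell cannot be told apart.

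**Figure D1:**
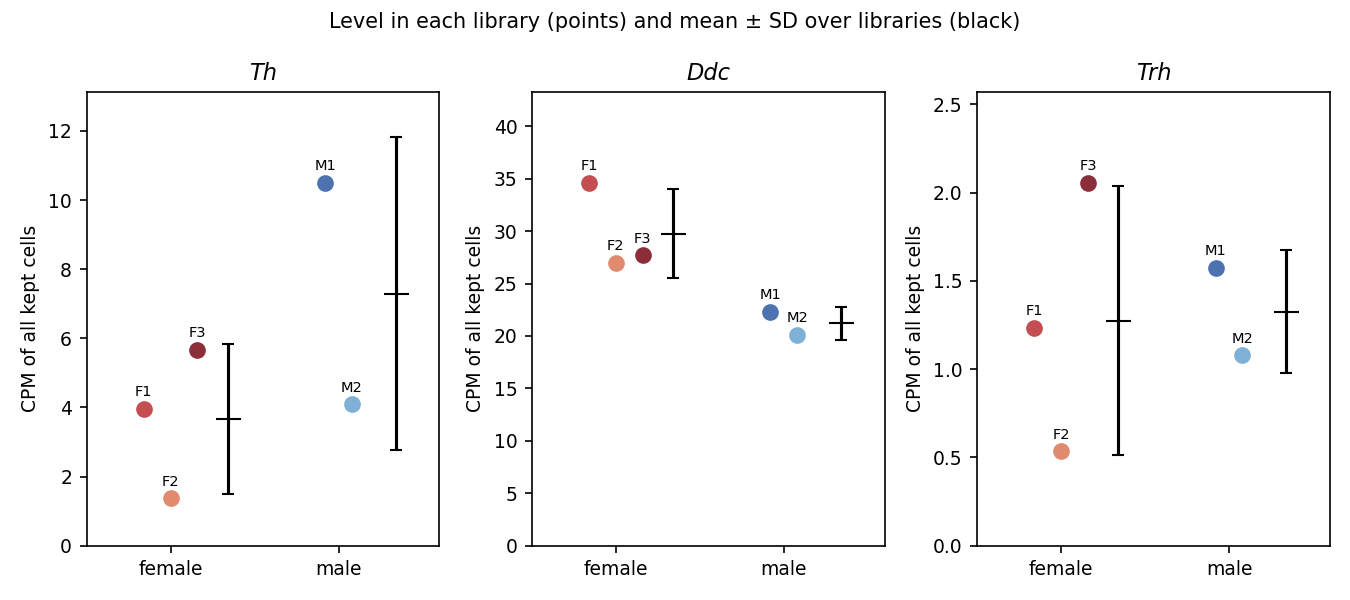
Level of *Th*, *Ddc* and *Trh* in CPM of all kept cells (vertical axes, linear from 0) in the 3 female (F1 to F3) and 2 male (M1, M2) libraries, with the mean ± SD of each sex in black. The female and male points overlap for *Th* and *Trh* and do not overlap for *Ddc*, where the lowest female library has 27 CPM and the highest male library 22.3 CPM.

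The comparison of the sexes asks whether male and female brains differ in these enzymes. None of the 3 genes passed the test (edgeR quasi-likelihood test on the summed counts, adjusted p of 1.00 for each), against 3 of 13875 genes called over the whole table (0.0216%), 1 higher in males (0.00721%) and 2 lower (0.0144%). With DESeq2 the table gave 34 calls, and 331 genes had an unadjusted edgeR p under 0.05. The log2 fold change of male against female was −0.50 ± 0.25 for *Ddc*, 1.02 ± 0.55 for *Th* and 0.07 ± 0.62 for *Trh* (SE). For *Th* the size rested on male replicate 1, since it was 0.23 without that library. An exact two-sided permutation test on the CPM values gave p = 0.2 for *Ddc*, p = 0.4 for *Th* and p = 1 for *Trh*, where 0.2 is the smallest value that 3 against 2 libraries allow.

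All 3 genes had most of their UMIs in neurons, which made up 92.0% of the kept cells. *Th* had a UMI in 301 neurons (1.05%), *Ddc* in 1300 (4.54%) and *Trh* in 131 (0.457%). Hemocytes, the blood cells, had a *Th* UMI in 1 of 1182 cells (0.0846%), a *Ddc* UMI in 8 (0.677%) and a *Trh* UMI in 0. By a limit of 3 cells, the 0 allows a share of cells with a *Trh* UMI of up to 0.254%. The median depth was 2699 UMIs in neurons and 2252 in hemocytes. With cells thinned to 2000 UMIs, which left 19119 neurons and 670 hemocytes, the shares in neurons were 0.696% for *Th*, 3.26% for *Ddc* and 0.235% for *Trh*, and those in hemocytes were 0% for *Th* and *Trh* and 0.746% for *Ddc*. Glia, the support cells of the brain, had a *Ddc* UMI in 18 of 796 cells (2.26%), a *Th* UMI in 1 and no *Trh* UMI. In CPM, neurons had 27.5 ± 5.94 of *Ddc* against 9.99 ± 13 in glia and 2.64 ± 4.24 in hemocytes (SD, n = 5). The *Ddc* level in glia was 0, 0 and 2.26 CPM in the female libraries and 27.9 and 19.9 CPM in the male libraries. The sexes did not overlap, and the male glia were at the level of the neurons of their libraries, 22.5 and 20.7 CPM, but these values rest on 1 UMI in females and on 17 and 11 UMIs in males and were not tested. Without male replicate 1 the mean of glia was 5.53 CPM, and without male replicate 2 that of hemocytes was 0.869 CPM. *Th* had 5.39 ± 3.46 CPM in neurons and *Trh* 1.37 ± 0.609 CPM. Fat body cells had a mean *Ddc* level of 114 ± 236 CPM, which rested on female replicate 1, where 2 UMIs in 4 cells gave 535 CPM. Without that library it was 8.68 CPM.

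Most positive neurons held a single UMI of the gene, so depth limited which neurons could be counted. Of the 301 *Th* neurons 204 had 1 UMI and 26 had 5 or more, with a maximum of 32. Of the 1300 *Ddc* neurons 841 had 1 UMI and 108 had 5 or more, with a maximum of 85. Of the 131 *Trh* neurons 109 had 1 UMI and 3 had 5 or more, with a maximum of 7. Positive neurons were also deeper. Their median depth was 5424 UMIs for *Th*, 4692 for *Ddc* and 6348 for *Trh*, against 2683, 2641 and 2691 in the neurons without the gene. Called doublets made up 17.6%, 18% and 26% of the positive neurons in that order, and 6.86%, 6.45% and 6.89% of the others. The main results on positive neurons are therefore also given for thinned cells, at matched depth or without called doublets.

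Across clusters, the *Th* level was high in a few and low in the rest. Its mean was highest in cluster 39, at 192 ± 120 CPM (SD, n = 4 libraries of at least 3 cells), followed by cluster 20 at 113 ± 104 and cluster 22 at 77.4 ± 116 CPM (n = 5 each). The fourth, cluster 14, had 11.5 ± 9.91 CPM, all other clusters had under 10 CPM, and 11 of 40 clusters had no *Th* UMI. They held 10.3%, 22.5% and 18.7% of the *Th* UMIs of neurons in that order. In the held-out check 3 of 5 annotated cells of cluster 39, 13 of 34 of cluster 20 (38.2%) and 13 of 15 of cluster 22 regained their number, so the levels of cluster 20 in particular rest on uncertain labels. In cluster 39 the *Th* level was 51.2, 154, 336 and 227 CPM in female replicates 2 and 3 and male replicates 1 and 2. Each of these was the highest of any cluster in its library. In cluster 20 it was 285, 30.04 and 124 CPM in the female libraries and 37.3 and 86.8 CPM in the male libraries. In cluster 22 it was 0, 5.67 and 20.2 CPM in the female libraries and 276 and 85.2 CPM in the male libraries. The sexes did not overlap in cluster 22, but only 12 of its 282 cells had a *Th* UMI, 5 in each male library and 2 among the female libraries, so the levels rest on few cells. Without male replicate 1 the mean of *Th* in cluster 22 was 27.8 CPM, and without female replicate 1 that in cluster 20 was 69.6 CPM.

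*Ddc* was spread far more widely than *Th*, with 26 of 40 clusters over 10 CPM and 25 of 30 neuron clusters at or over the level of 3 UMIs. Cluster 39 again led, at 237 ± 63.8 CPM (n = 4), and 34 of its 40 cells (85%) had a *Ddc* UMI. Its libraries had 205 and 315 CPM in female replicates 2 and 3 and 260 and 170 CPM in male replicates 1 and 2, a narrower range than that of *Th* in the same cells. Cluster 38 had 233 ± 384 CPM, of which female replicate 1 had 908, with 123 UMIs in 2 of its 10 cells there. Without that library it had 64.1 CPM. Cluster 20 had 101 ± 46.6 CPM, from 61.1 to 173 in its libraries, and cluster 22 had 56.0 ± 34.1 CPM. Clusters 7, 10, 31 and 1 followed with 46.7 ± 18.6, 46.6 ± 48.9, 41.8 ± 13.8 and 33.2 ± 8.24 CPM. Cluster 10 rested on female replicate 3, with 132 CPM against 11.7 to 35.8 in the others, and had 25.2 CPM without it, below clusters 31 and 1. By number of cells the order was another, since clusters 1 and 7 are large and held 262 and 154 of the 1300 *Ddc* neurons.

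*Trh* had no cluster over 10 CPM, and 22 of 40 clusters had no UMI. It was highest in cluster 18, at 5.32 ± 2.07 CPM (n = 5), where 16 of 454 cells had a UMI. The libraries of cluster 18 had 5.21, 3.14 and 8.68 CPM in females and 5.30 and 4.25 CPM in males. These values rest on 2, 1 and 7 UMIs in females and on 6 and 3 UMIs in males. Female replicates 1 and 2 were thus under the limit of 3 UMIs used here for detection. Clusters 15 and 7 followed with 4.23 ± 4.81 and 3.79 ± 1.83 CPM, then clusters 20 and 1 with 2.52 ± 2.85 and 2.22 ± 1.33 CPM. In cluster 15 female replicate 1 had 11.6 CPM from 1 UMI in 29 cells, and without it *Trh* had 2.40 CPM there, below cluster 7. Without female replicate 3, *Trh* in cluster 20 had 1.43 CPM. In cluster 39 no *Trh* UMI was found, and 3 UMIs there would be 8.91 CPM, and at this depth a level as in cluster 18 was not detectable. In none of the 3 orders did neighbours among the 9 leading clusters differ by more than the larger of their SDs, so the ranks are a description.

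**Figure D2:**
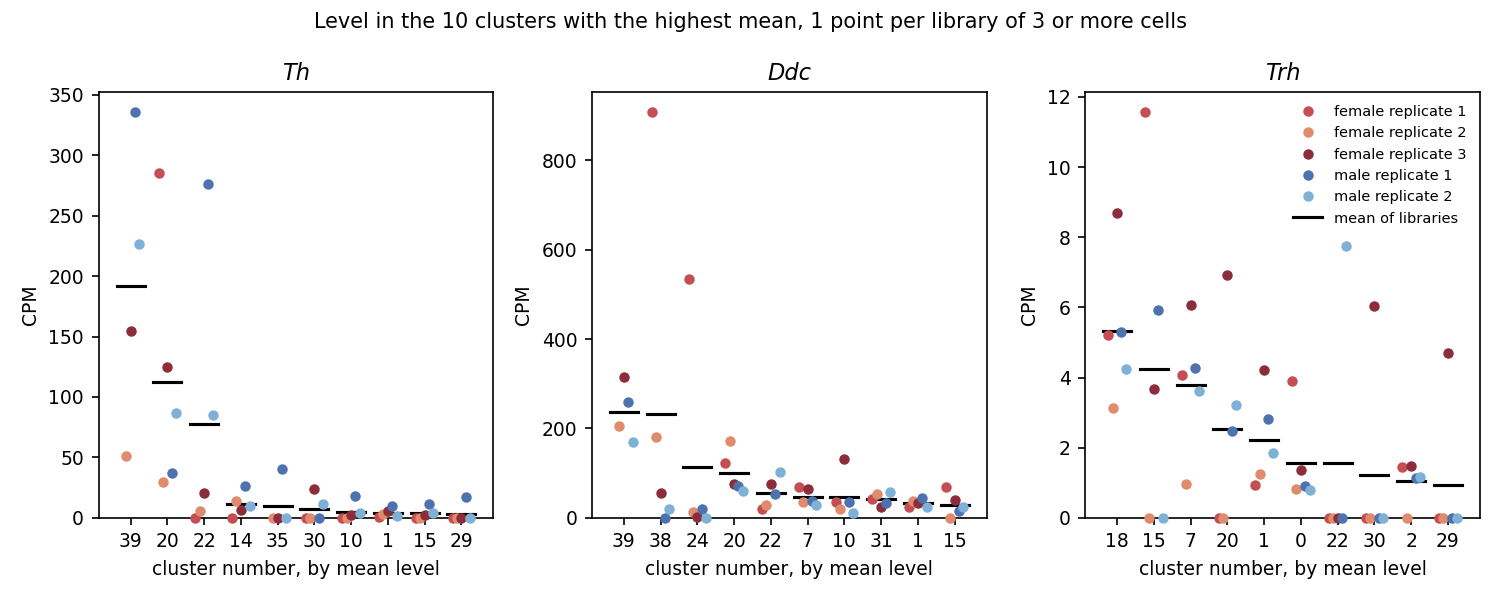
Level of *Th*, *Ddc* and *Trh* (CPM, vertical axes, linear from 0) in the 10 clusters with the highest mean, in descending order, with 1 point for each library of at least 3 cells and a black line at the mean. *Th* drops from 77.4 CPM in cluster 22 to 11.5 in cluster 14, *Ddc* falls off gradually behind the single high points of female replicate 1 in clusters 38 and 24, and no *Trh* mean exceeds 5.32 CPM.

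The genes most like each enzyme over the 40 clusters were found by the Pearson correlation of log2(CPM + 1), among 11747 genes with at least 10 CPM in some cluster. For *Th* they were led by evm.TU.CTG-847.3-evm.TU.CTG-847.4 (r = 0.67) and evm.TU.CTG-937.21 (r = 0.67), without a name in the tables. *Dbh* (evm.TU.CTG-1462.1), the monooxygenase that the tables also call *Tbh* and that acts in octopamine synthesis in insects, ranked 5 with r = 0.63. *Vmat* ranked 7 (r = 0.62) and *Ddc* ranked 42 (r = 0.51). For *Ddc* the leading genes were evm.TU.CTG-1280.3 (r = 0.72) and evm.TU.CTG-763.3 (r = 0.71). For *Trh* the list held *DH44* (evm.TU.CTG-556.25), a diuretic hormone precursor, at rank 2 (r = 0.63) and *OK* (evm.TU.CTG-1337.38), the orcokinin precursor, at rank 5 (r = 0.60), while *Ddc* ranked 1027 (r = 0.38). These values describe 40 clusters that share their libraries and differ in depth, and many rest on few cells. Without cluster 39, *Th* and *Dbh* had r = 0.45.

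At the level of single cells *Ddc* went with both hydroxylases, and more often with *Trh* than with *Th*. *Ddc* had a UMI in 74 of 131 *Trh* neurons (56.5%, 95% Clopper-Pearson interval 47.6 to 65.1) and in 4.30% of the other neurons. It had a UMI in 70 of 301 *Th* neurons (23.3%, interval 18.6 to 28.4) and in 4.34% of the others. Since a deeper neuron has more genes with a UMI, the positive neurons were also set beside other neurons of the same library, cluster and depth class, called like neurons here. In like neurons the *Ddc* share was 9.01% for *Trh* and 11.2% for *Th*. After thinning to 2000 UMIs, *Ddc* was found in 23 of 45 *Trh* neurons (51.1%) and in 21 of 133 *Th* neurons (15.8%), against 3.15% and 3.17% of the others. Called doublets made up 27 of the 74 neurons with *Trh* and *Ddc* (36.5%) and 12.3% of the *Trh* neurons without *Ddc*, and 27.1% of the neurons with *Th* and *Ddc* against 14.7% of the *Th* neurons without it. The intervals cover counting error only.

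In each library the *Ddc* level was higher in the neurons with a hydroxylase UMI. In *Trh* neurons it was 468, 356 and 310 CPM in the female libraries and 254 and 318 CPM in the male libraries, against 33, 28, 25.7, 19.3 and 18.2 CPM in the other neurons in the same order. The lowest *Trh* value was above the highest other value by several times. In *Th* neurons the *Ddc* level was 102, 108 and 105 CPM in the female and 66.0 and 88.9 CPM in the male libraries, against 34.9, 28.4, 28.4, 20.8 and 20.1 CPM. Here too the values did not overlap. The log2 ratio, with 1 CPM added, was 3.73 ± 0.20 for *Trh* neurons and 1.79 ± 0.23 for *Th* neurons (SD, n = 5 libraries), higher in 5 of 5 libraries each. The exact two-sided sign-flip permutation test gave p = 0.063 for each, the smallest that 5 libraries allow. The ratio was greater for *Trh* than for *Th* by 1.94 ± 0.24 on the log2 scale, in 5 of 5 libraries (exact sign-flip permutation p = 0.063). Against like neurons the ratio was 3.68 ± 0.35 for *Trh* and 0.96 ± 0.40 for *Th*, and with called doublets left out 3.44 ± 0.34 and 2.10 ± 0.43 against all other neurons.

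**Figure D3:**
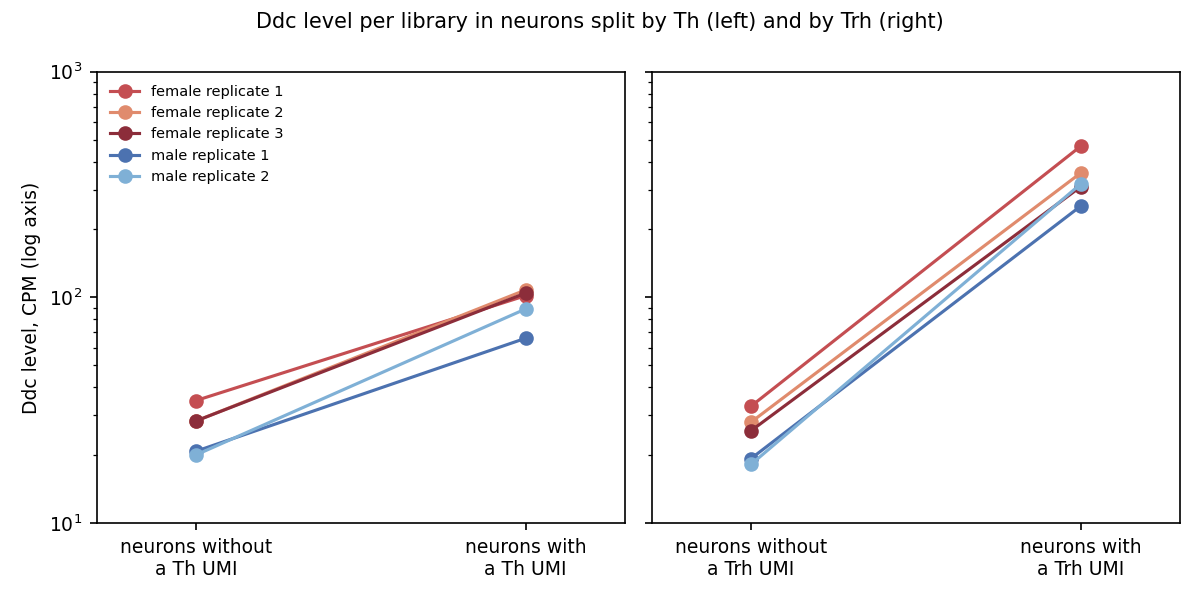
*Ddc* level in CPM (vertical axis, log scale) in neurons without and with a *Th* UMI (left) and without and with a *Trh* UMI (right), 1 line per library. All 5 lines rise in both panels, to between 66.0 and 108 CPM with *Th* and to between 254 and 468 CPM with *Trh*.

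At full depth the share of neurons with *Ddc* was larger where more UMIs of the hydroxylase were counted. Among *Th* neurons it was 15.7% at 1 *Th* UMI (32 of 204), 28.2% at 2 to 4 (20 of 71) and 69.2% at 5 or more (18 of 26, interval 48.2 to 85.7). Among *Trh* neurons it was 53.2% at 1 UMI (58 of 109) and 68.4% at 2 to 4 (13 of 19), and all 3 neurons with 5 or more had *Ddc*. The intervals of the groups with 1 UMI did not overlap between *Th* and *Trh*. Neurons with more UMIs of a hydroxylase were also deeper, with a median of 8238 UMIs at 5 or more *Th* UMIs against 5265 at 1. After thinning to 2000 UMIs the share with *Ddc* was 12.4% at 1 *Th* UMI (12 of 97), 16.1% at 2 to 4 (5 of 31) and 4 of 5 at 5 or more, and the intervals at 1 and at 2 to 4 overlapped. Of the thinned *Trh* neurons 22 of 44 with 1 UMI had *Ddc*, and 1 neuron had more than 1 UMI.

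**Figure D4:**
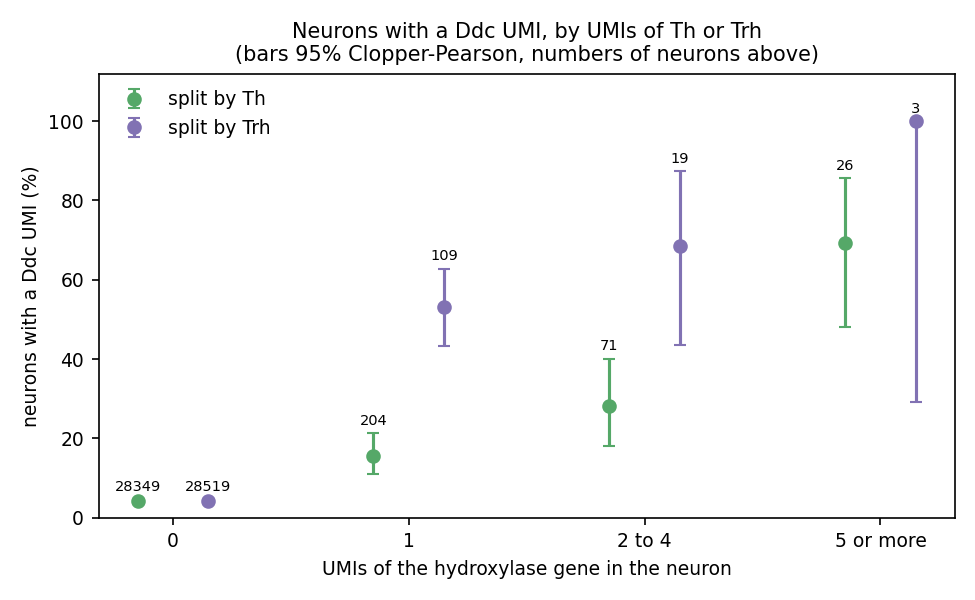
Percent of neurons with a *Ddc* UMI (vertical axis) by the number of *Th* or *Trh* UMIs in the same neuron (horizontal axis), with 95% Clopper-Pearson intervals as bars and the number of neurons above each. The share with *Th* goes from 15.7% at 1 UMI to 69.2% at 5 or more, while the share with *Trh* is already 53.2% at 1 UMI.

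*Th* and *Trh* were found together in 1 neuron, a called doublet with 15687 UMIs. It is 0.763% of the *Trh* neurons (interval 0.0193 to 4.18), against 1.05% in the neurons without *Trh* and 2.67% in like neurons. The interval holds both comparison shares, so a lower share than in other neurons was not detectable with 131 cells. *Ddc* was found without either hydroxylase in 1157 neurons. Among the 108 neurons with 5 or more *Ddc* UMIs, 26 (24.1%) had *Trh* and 7 had *Th*, and 75 had neither. Of these 75, 22 were in cluster 1 and 13 in cluster 7, and their median depth of 7506 UMIs was above that of *Trh* neurons.

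*Trh* neurons differed by cluster in whether they held *Ddc*. In cluster 1 it was found in 24 of 39 *Trh* neurons, in cluster 7 in 17 of 23, in cluster 15 in 6 of 10 and in cluster 2 in 8 of 9. In cluster 18, where the *Trh* level was highest, it was found in 0 of 16, which by a limit of 3 cells allows a share with a *Ddc* UMI of up to 18.8%. The 16 neurons were not shallower, with a median of 11839 UMIs against 5836 in the *Trh* neurons of other clusters, and none was a called doublet. The remaining cells of cluster 18 had *Ddc* in 8.90%. The 16 neurons came from all 5 libraries, with 2, 1 and 6 from the female and 4 and 3 from the male libraries. Outside cluster 18, *Ddc* was found in 74 of 115 *Trh* neurons (64.3%), from 57.9% to 69.7% by library. The clusters were compared after their values were seen, so the contrast is given with no test, and 21 of 30 annotated cells of cluster 18 regained their number in the held-out check.

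Some *Th* neurons held a UMI of *Gad1* or *Dbh*, and most of the 301 held neither. *Gad1* (evm.TU.CTG-357.1), which encodes the enzyme that makes GABA, had a UMI in 71 of 301 (23.6%), against 2.33% of the other neurons and 15.1% of like neurons, and 44 of the 71 were in cluster 20. *Dbh* had a UMI in 26 (8.64%), against 1.02% and 6.76%, and 22 of the 26 were in clusters 22 and 39. Both genes were common in these clusters without *Th* too. *Gad1* was found in 75.3% of the cluster 20 neurons without *Th*. *Dbh* was found in 61.9% and 93.3% of those in clusters 22 and 39. Among the 26 neurons with 5 or more *Th* UMIs, *Gad1* was found in 14 and *Dbh* in 12. *Th*, *Gad1* and *Dbh* occurred together in 1 neuron. With *Ddc* added, 20 neurons held *Th* and *Dbh*, 19 of them in clusters 22 and 39, and 27 held *Th* and *Gad1*, 18 of them in cluster 20 and none with *Dbh*.

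The makeup of the *Th* neurons also differed between libraries. Male replicate 1 held 141 of the 301 (46.8%), which is 2.07% of its neurons, against 0.347% to 1.26% in the other libraries. After thinning to 2000 UMIs the share was 1.16% there and from 0.334% to 0.931% elsewhere. In that library 10.6% of the *Th* neurons were in clusters 20, 22 and 39, against 27.6% to 66.7% in the others. *Gad1* was found in 9 of its 141 *Th* neurons (6.38%), against 75.0%, 60.0% and 32.2% in female replicates 1, 2 and 3 and 34.8% in male replicate 2. Of the *Th* neurons of that library 73.8% had a single *Th* UMI. Over all libraries, cluster 1 held 59 *Th* neurons, of which 22 were called doublets. The part of these in the differences between libraries was not tested.

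*Vmat* (evm.TU.CTG-509.30), the vesicular monoamine transporter, was rare, with a UMI in 103 neurons. With all libraries pooled, it was more frequent in neurons with each of the 3 genes. It was found in 12 of 131 *Trh* neurons (9.16%, interval 4.82 to 15.5), in 42 of 1300 *Ddc* neurons (3.23%, 2.34 to 4.34) and in 9 of 301 *Th* neurons (2.99%, 1.38 to 5.60). The shares in neurons without the gene were 0.319%, 0.223% and 0.332%, and those in like neurons 1.03%, 0.543% and 1.36%. The lower bounds were above the shares in like neurons for *Trh* and *Ddc*, and for *Th* the bound lay beside it. These intervals pool the cells of all libraries and do not cover the spread between libraries. In female replicate 2 and male replicate 2, *Vmat* was found in 0 of 7 and 0 of 22 *Trh* neurons and in 0 of 15 and 0 of 46 *Th* neurons. For *Ddc* neurons the share was above that of the other neurons in each library. Of the 12 *Trh* neurons with *Vmat*, 11 also had *Ddc*, and 9 of the 12 came from female replicate 3.

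The neurons with a UMI of each enzyme were next compared with all other neurons over all genes, by summing counts per library and fitting edgeR with the library as a block. In *Th* neurons 184 of 10469 genes were called (1.76%), 68 higher (0.65%) and 116 lower (1.11%). Of the 8 other genes fixed for the monoamine pathway beside the 3 enzymes, 6 were tested, 2 were higher and 0 lower. *Ddc* was higher by 1.77 ± 0.17 on the log2 scale (SE, edgeR adjusted p = 7.32e-19), with levels as given above. *Dbh* had 0, 90.0 and 92.7 CPM in the *Th* neurons of the female libraries and 143 and 1008 CPM in those of the male libraries, against 7.57 to 20.5 CPM in the other neurons. It was higher in 4 of 5 libraries and at 0 in female replicate 1, and its log2 fold change was 3.80 ± 0.22 (edgeR adjusted p = 2.37e-41). *Dop1R1* (evm.TU.CTG-1173.21), a dopamine receptor, was higher by 1.94 ± 0.38 in 4 of 5 libraries. *Tdc2*, which makes tyramine in insects, *Fer2*, a transcription factor needed in some *Drosophila* dopamine neurons, *Catsup*, a negative regulator of Th in *Drosophila*, and the receptor *DopEcR* did not pass the test, with log2 fold changes of −1.42, −1.42, 0.18 and 0.23.

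Among other genes of the *Th* neurons, *Gad1* was higher by 2.64 ± 0.19 and *VAChT* (evm.TU.CTG-1633.18), which loads acetylcholine into vesicles, lower by a log2 fold change of −1.27 ± 0.29, each in 5 of 5 libraries. *Gad1* had 727, 522 and 228 CPM in the female and 38.3 and 212 CPM in the male libraries, so male replicate 1 was again lowest. Also higher in 5 of 5 were *nemy* (evm.TU.CTG-1081.13), of the cytochrome b561 family, by 2.28 ± 0.40, *RERG* (evm.TU.CTG-1292.28), a small GTPase of the Ras family, by 0.87 ± 0.17, *Axn_S2* (evm.TU.CTG-920.11), the Wnt pathway scaffold axin, by 0.78 ± 0.17, *FGRL1_S2* (evm.TU.CTG-804.6) by 0.72 ± 0.15 and *MED25* (evm.TU.CTG-489.18), a Mediator subunit, by 0.51 ± 0.15. Set against like neurons, *Ddc* (1.06 ± 0.14, edgeR adjusted p = 0.00546) and *Dbh* (1.61 ± 0.17, 0.00202) kept their calls. *Gad1* (0.23 ± 0.26), *RERG* (0.47), *Axn_S2* (0.50), *FGRL1_S2* (0.41) and *MED25* (0.29) lost theirs, and *nemy*, *VAChT* and *Dop1R1* were too low to be tested there. That comparison tested 3164 genes and called 19.

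In *Ddc* neurons 616 of 10852 genes were called (5.68%), 375 higher (3.46%) and 241 lower (2.22%). Both hydroxylases were among them, and this is the same co-detection seen from the other side. The *Th* level in *Ddc* neurons was 18.6, 5.32 and 31 CPM in the female and 69.6 and 34 CPM in the male libraries, against 1.10 to 5.68 CPM in the others, a log2 fold change of 3.37 ± 0.19 (edgeR adjusted p = 1.52e-06). The *Trh* level was 9.85, 3.54 and 16.1 CPM in the female and 13.8 and 9.21 CPM in the male libraries, against 0.274 to 0.969 CPM, a log2 fold change of 4.20 ± 0.24 (1.52e-06). Female replicate 2 was lowest in both, and each was higher in 5 of 5 libraries. Of the 6 pathway genes tested beside the enzymes, *Dbh* (2.78 ± 0.22, 5 of 5 libraries) and *Dop1R1* (0.80 ± 0.21, 4 of 5) were higher and *Fer2* (−1.28 ± 0.22, 0 of 5) lower. *Gad1* was higher by 2.02 ± 0.23 and *VAChT* lower, at −0.78 ± 0.14.

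The other named genes of *Ddc* neurons were led by *AstB (mip)* (evm.TU.CTG-1394.2), a precursor of myoinhibitory peptides, with 7695 CPM against 1053 CPM and a log2 fold change of 2.90 ± 0.14. Smaller increases were found for *ALP* (evm.TU.CTG-569.27, an agatoxin-like peptide precursor, 0.92), *VAT1L_S3* (evm.TU.CTG-408.23, 0.71), *ABCF2* (evm.TU.CTG-958.11, 0.59) and *Vkor* (evm.TU.CTG-1019.10, vitamin K epoxide reductase, 0.56). Lower were *EH* (evm.TU.CTG-283.22), the eclosion hormone precursor (−6.79), *CCHa* (evm.TU.CTG-1183.3), a CCHamide precursor (−4.87), *mmd_S5* (evm.TU.CTG-338.1), an ADAM family protein (−0.73), and *Hk_S2* (evm.TU.CTG-673.16), a potassium channel β subunit (−0.59). Set against like neurons, *Th* (2.29 ± 0.30), *Dbh* (1.10 ± 0.11), *VAT1L_S3* (0.43), *EH* (−7.20), *CCHa* (−5.16) and *mmd_S5* (−0.39) kept their calls. *AstB (mip)* (0.92 ± 0.19, edgeR adjusted p = 0.0982), *Gad1* (0.70), *ALP* (0.47), *ABCF2* (0.24), *Vkor* (0.18), *Hk_S2* (−0.27), *VAChT* (−0.56) and *Dop1R1* (0.60) lost theirs, and *Trh* and *Fer2* were not tested there. That comparison called 33 of 8177 genes.

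In *Trh* neurons 82 of 10678 genes were called higher (0.768%) and 275 lower (2.58%), or 3.34% in all, over the 4 libraries with at least 10 such neurons. Female replicate 2, with 7, was left out. *Ddc* was higher by 3.60 ± 0.14 (edgeR adjusted p = 3.53e-132), the largest increase among the genes named for this comparison. Of the 6 pathway genes tested beside the enzymes, 0 were higher and 1 lower, *Dbh*, with 6.03 CPM against 17.9 CPM (−2.25 ± 0.57). *Th* had 1.23 CPM in *Trh* neurons against 6.42 CPM in the others, a log2 fold change of −2.29 ± 0.89 that did not pass the test (edgeR adjusted p = 0.170).

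*GATA2* (evm.TU.CTG-1120.10-evm.TU.CTG-1120.11), a zinc-finger transcription factor whose vertebrate relatives act in the specification of serotonin neurons, was higher in *Trh* neurons. It had 435 and 286 CPM in female replicates 1 and 3 and 284 and 96.5 CPM in male replicates 1 and 2, against 72.8, 52.2, 64.7 and 65.0 CPM in the other neurons. All 4 libraries were higher, male replicate 2 least, and the log2 fold change was 1.86 ± 0.14 (edgeR adjusted p = 4.28e-38). *GATA2* had a UMI in 58 of 131 *Trh* neurons (44.3%), against 10.1% of the others and 16.3% of like neurons. *SPR_S1* (evm.TU.CTG-1.50), annotated as a sex peptide receptor, had 334, 304, 284 and 227 CPM in the *Trh* neurons of these libraries against 116, 115, 125 and 94.5 CPM (1.13 ± 0.13). Also higher in 4 of 4 libraries were *AT* (evm.TU.CTG-216.1), the allatotropin precursor, by 1.40 ± 0.13, *ALP* by 1.31 ± 0.21, *homer* (evm.TU.CTG-1097.1), a scaffold of the postsynapse, by 0.66 ± 0.14, *VAT1L_S3* by 0.63 ± 0.14 and *CYT_S1* (evm.TU.CTG-1045.26), a cystatin, by 0.56 ± 0.13. *Gad1* was higher by 1.59 ± 0.19 in 3 of 4 and had no UMI in the *Trh* neurons of female replicate 1. Set against like neurons, *Ddc* (3.44 ± 0.15), *GATA2* (1.57 ± 0.17, edgeR adjusted p = 0.000119), *SPR_S1* (0.79 ± 0.10), *homer* (0.55) and *CYT_S1* (0.40) kept their calls. *AT* (0.04), *ALP* (0.92), *VAT1L_S3* (0.52) and *Gad1* (0.78) lost theirs, and *Dbh* and *Th* were not tested there. That comparison called 51 of 3631 genes.

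**Figure D5:**
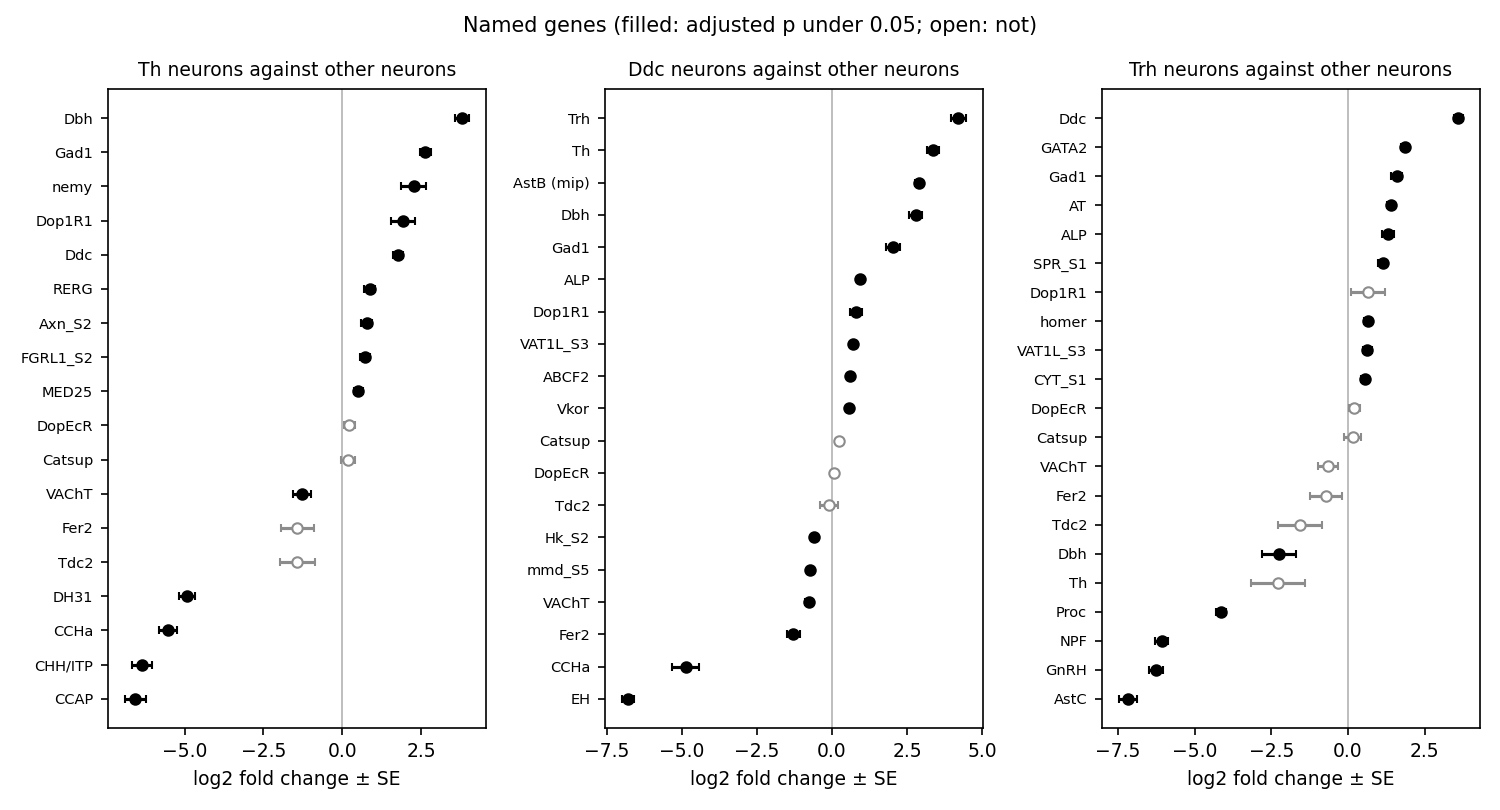
Log2 fold change ± SE (horizontal axes) of the named genes in neurons with a *Th*, *Ddc* or *Trh* UMI against other neurons, from the edgeR fit with the library as a block, with filled points for an adjusted p under 0.05. *Dbh* (3.80) leads in *Th* neurons, *Trh* (4.20) and *Th* (3.37) lead in *Ddc* neurons, and *Ddc* (3.60) and *GATA2* (1.86) lead in *Trh* neurons.

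Neuropeptide precursors, of which 71 were listed, were often called lower in the neurons with a hydroxylase. In *Trh* neurons 56 were tested, 6 were higher and 39 lower, with a median log2 fold change of −1.80, against 0.768% higher, 2.58% lower and a median of −0.08 over all genes. In *Th* neurons 57 were tested, 5 were higher and 25 lower, with a median of −0.72 against −0.06 over all genes. In *Ddc* neurons 59 were tested, 9 were higher and 7 lower, with a median of 0.21 against −0.01. Against like neurons 0 were higher and 25 lower of 42 tested for *Trh*, 0 and 3 of 35 for *Th*, and 2 and 2 of 54 for *Ddc*. The precursors named for *Trh* were *AstC* (evm.TU.CTG-1075.4, −7.18), *GnRH* (evm.TU.CTG-40.4, −6.27), *NPF* (evm.TU.CTG-1122.36, −6.08) and *Proc* (evm.TU.CTG-453.33, the proctolin precursor, −4.15), and all of them kept their calls against like neurons. Those for *Th* were *CCAP* (evm.TU.CTG-40.6, −6.56), *CHH/ITP* (evm.TU.CTG-539.1, −6.36), *CCHa* (−5.53) and *DH31* (evm.TU.CTG-674.24, −4.93), of which *CHH/ITP* kept its call, *DH31* lost it and the others were not tested. Such precursors have nearly all their UMIs in few cells, and a call did not always match the mean level. In *Th* neurons *GnRH* was called lower (−4.03) and was lower in 4 of 5 libraries, but its mean was 5131 CPM against 816 CPM. In *Trh* neurons *Ele* (evm.TU.CTG-147.17) was called lower (−0.63) at 4749 CPM against 1157 CPM. The counts of called precursors are therefore not counts of precursors with a lower mean level. The 1% of neurons with the most *NPF* UMIs held 98.0% of them, and a *NPF* UMI was found in 13% of the *Trh* neurons and 10.7% of the others. Likewise *CHH/ITP* was found in 2.33% of the *Th* neurons and 1.79% of the others, with a maximum of 1 UMI against 7649. For both, the lower sums came with no lower share of neurons with a UMI. The same held for *Proc* in *Trh* neurons and for *CCHa* and *DH31* in *Th* neurons. The share was lower for *AstC* (2.29% against 4.77%) and *GnRH* (7.63% against 7.99%) in *Trh* neurons. It was also lower for *CCAP* in *Th* neurons (1.99% against 2.43%). The part of the few cells with very many UMIs was not tested.

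Of the markers of glia, hemocytes and fat body that were tested, none was called in any of the 3 comparisons. The summed level of the 5 glia markers was lower in the positive than in the other neurons in 5 of 5 libraries for each enzyme, at 12.7 to 36 CPM in *Th* neurons, 14.9 to 40.9 in *Ddc* neurons and 0 to 33.4 in *Trh* neurons. That of the 6 fat body markers was higher in 5 of 5 libraries for *Th* and *Ddc*, at 324 to 450 and 294 to 418 CPM against 280 to 400 and 279 to 400 CPM, and in 4 of 5 for *Trh*, at 251 to 429 against 281 to 401 CPM. That of the 5 hemocyte markers was higher in 1 of 5 libraries for *Th* and for *Ddc* and in 2 of 5 for *Trh*, at 4.23 to 29.1, 10.5 to 30.1 and 0 to 28.9 CPM. The part of these markers in the results was not tested. *FASN1*, 1 of the 6 fat body markers, was the class marker that was not highest in its own class. It had 143 CPM in neurons and 24.7 CPM in fat body cells, so the fat body sum is not specific to those cells. Of the 4 neuron markers none was called for *Th*, 2 were lower for *Ddc* and 1 for *Trh*. The sums of positive neurons rest on far fewer cells than those of the others, and the fit gives both a common spread.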

How the data were processed

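The deposited files hold counts of UMIs per gene and barcode, which the authors made with Cell Ranger on their spider assembly and did not normalize. Coordinates and sequences were not used here. Barcodes with 500 to 60000 UMIs, at least 200 genes, a ratio of log10 genes to log10 UMIs above 0.7 and under 40% mitochondrial UMIs were kept. The study's cluster numbers, held for 1998 cells, were carried over by label spreading (20 neighbours, 40 principal components of 2000 variable genes without the named genes, Harmony-type correction for library, scikit-learn 1.9.0). Doublets were called against simulated ones (2 per cell). The members and lists were chosen with earlier results of these data known. The genes named were the members, the pathway and transmitter lists, up to 8 higher and 4 lower called genes per comparison that have a name and moved alike in every library, and the 5 genes most like each member.

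Sums per library were tested with edgeR 4.0.16 (filterByExpr, TMM, quasi-likelihood F test, Benjamini-Hochberg over all genes tested, 0.05), with DESeq2 1.42.0 as an alternative, in R 4.3.3. The procedure was tested on simulated counts that gave all sums of a gene a common spread. That test does not cover sums led by few cells with very many UMIs. Nothing in the labels says how the pooled brains were divided, so p-values for the sexes concern these libraries only. In the comparisons of cells, the fit gives the sums of few positive neurons and those of many others a common spread. Their p-values are therefore no measure of the spread between libraries. In *Trh* neurons *RYa* (evm.TU.CTG-1474.2), an RYamide precursor, was called lower (edgeR adjusted p = 4.04e-21). It was lower in 2 of 4 libraries and higher in 2. Levels under 3 UMIs were taken as not detected, and cells were thinned to 2000 UMIs to compare shares. Alternatives covered the limits on cells, the UMI threshold, the cluster labels, doublets, normalization, filter, test, blocks, the comparison cells and each library left out. The weighting of the comparison to clusters and depths, called like neurons, was added after seeing the data.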

Additional observations from a re-analysis of the deposited data

Results flagged for a closer look

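In 5 of 28 groups of libraries, 1 library stood far from the others by an outlier rule (Dixon's Q). Its rate of 1 in 20 holds for normally distributed values. A group with UMIs in only 1 library is always flagged, so the number of flags is not set against that rate. The *Th* level in glia was 3.28 CPM in male replicate 1, from 2 UMIs in 1 cell, and 0 in the others. The *Th* level in hemocytes was 0.802 CPM in female replicate 3, from 1 UMI, and 0 in the others. The *Ddc* level in cluster 38 was 908 CPM in female replicate 1, with 180 CPM in the next library. That in cluster 24, the fat body cells, was 535 CPM in the same replicate, from 2 UMIs in 4 cells, with 19.5 CPM in the next. The *Trh* level in cluster 22 was 7.75 CPM in male replicate 2, from 3 UMIs, and 0 in the others.

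The 9088 barcodes left out of the analysis held 27 *Th* UMIs (1.48 CPM) and 134 *Ddc* UMIs (7.32 CPM), above the 0.164 CPM that 3 UMIs would give, and 2 *Trh* UMIs.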

How the results depend on the processing

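Of 948 values recomputed under the alternatives, 816 stayed the same by the rule for their kind. A test had to keep its direction and side of the threshold. A count of called genes had to stay within a set factor of the main count, and a level within the SD of the main level. The counts of called genes were the most dependent on settings. For *Th* neurons (184 calls), 23 genes were called with the comparison weighted to clusters, 19 weighted to clusters and depths, 97 at a mitochondrial limit of 20%, 77 with DESeq2, 35 with no block for library, and 115 to 176 with 1 library left out, fewest without female replicate 2. For *Ddc* neurons (616), these were 357.0 at 2 or more UMIs, 35, 33, 165 and 19 with the weightings, the mitochondrial limit and no block, and 295 to 580 with 1 library left out, lowest without male replicate 1 (295), female replicate 3 (368) and male replicate 2 (410). For *Trh* neurons (82 higher and 275 lower), they were 47 and 51 with the weightings, 161 with DESeq2, 57 with no block, and 189 to 324 with 1 library left out, fewest without male replicate 1. The weightings tested fewer genes, and the cause of the other changes was not tested. *Trh* neurons at 2 or more UMIs were not run, as too few libraries held 10.

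The sex difference of *Trh* ranged from −0.19 to 0.58 with 1 library left out, turning to −0.031 without female replicate 1, −0.19 without female replicate 2 and −0.19 without male replicate 1. That of *Th* ranged from 0.23 to 1.55 and that of *Ddc* from −0.60 to −0.39. With the replicate block the 3 values were 1.43 for *Th*, −0.59 for *Ddc* and 0.61 for *Trh*, none called, while 39 genes were called over the table against 3. The libraries share 2 replicate numbers, with correlations of their deviations of 0.01 and 0.14. With 2 male libraries these values are not independent, and the labels do not say that a number pairs libraries. Whether a number marks a shared batch cannot be decided from these values. Signs turned for *DopEcR* in *Th* neurons (−0.025, weighted to clusters) and in *Ddc* neurons (−0.060 and −0.043, the weightings), *Gad1* in *Th* neurons (−0.022, weighted to clusters), *Tdc2* in *Ddc* neurons (0.27 at 2 or more UMIs, 0.0095 with no block, 0.37 without female replicate 3, 0.014 without male replicate 2) and *Catsup* in *Trh* neurons (−0.022 without male replicate 2, up to 0.34 without male replicate 1).

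By a vote of the nearest annotated cells, cluster 39 had 435 CPM of *Th* and 308 CPM of *Ddc*. Cluster 7 had 1.44 CPM of *Trh* among own (Leiden) clusters, where cluster 39 had no counterpart, and 5.94 CPM when the named genes were not removed from the variable genes. Neurons had 35.0 CPM of *Ddc* at a mitochondrial limit of 20%. Of 729 recomputed values for named genes, 92 lost their call and 4 gained one.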
